A study of Drosophila melanogaster with 24 samples.

Results

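The 34 genes described here encode the contractile machinery of fly muscle, chosen by name as a list of sarcomere proteins and close partners, and all 34 were found among the 12024 genes of the deposited table. They were picked by name and not by a threshold on measured values, but with earlier results of these data known. They fall into 5 groups by role. The thick filament group has Mhc, Mlc1, Mlc2, Prm, fln and Mf. The thin filament group has the actins Act57B, Act79B, Act87E and Act88F, the troponin C genes TpnC4, TpnC41C, TpnC73F, TpnC25D and TpnC47D, troponin T (up), troponin I (wupA) and the tropomyosins Tm1 and Tm2. The giant connecting and M-line proteins are bt, sls, Unc-89 and Strn-Mlck, the Z-disc group has Actn, Zasp52, Zasp66, Zasp67, Mlp60A and Mlp84B, and the other members are Mlc-c, Mp20, Msp300, SERCA and sesB. Of these, Mlc-c is the essential light chain of cytoplasmic myosin and sesB the mitochondrial ADP/ATP translocase, so that the list reaches a little beyond the sarcomere.

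A sarcomere shortens when myosin heads of the thick filament pull on actin of the thin filament. Calcium starts this by binding troponin C, which acts through troponin I, troponin T and tropomyosin to open the sites for myosin on the thin filament. The thorax of the adult fly is filled by indirect flight muscle, a stretch-activated fibrillar muscle with its own actin (Act88F), its own troponin C (TpnC4) and the thick filament protein flightin (fln), whereas legs, jump muscle, gut and abdomen hold tubular or visceral muscle with other isoforms.

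Expression was measured by RNA sequencing of ribosomal RNA-depleted total RNA from pools of 20 whole males, 0 to 16 h old, of 1 isogenic strain (w1118iso/Dp(1;Y)y+iso;2iso;3iso). F1 flies lived at 18 °C (F1-18, 4 libraries) or at 25 °C (F1-25, 3 libraries). F2 eggs were laid at the temperature of their F1 mothers, 18 or 25 °C, and were gathered at short intervals, so that F2 flies with an F1-18 germline had met 18 °C as eggs. After washing, all F2 flies grew at 25 °C in bottles seeded with faeces of F1 males. They received their germline and their microbiome from F1-18 or F1-25 flies in the 4 possible combinations. Both sources were F1-18 in F2-18-18 (4 libraries) and both were F1-25 in F2-25-25. For the crossed groups F2-25-18 (3 libraries) and F2-18-25 (4 libraries) the descriptions conflict. The sample labels give F2-25-18 a germline from F1-25 and a microbiome from F1-18, while the study's own naming puts the microbiome before the germline, and the sample titles carry the crossed names the other way round. The study's supplement defines F2-18-25 as descendants of F1-25 with a microbiome from F1-18. It lists libraries A to D for this cross and A, B and D for the reverse one, as found under these names here. By the supplement the second number is thus the germline, against the sample labels. The groups are called by the library names of the table, and only the place of a number in the name is used. The C and D values of F2-25-25 proved to be calculated from those of A and B for each of the 34 genes (their mean with a whole number added), so they were set to missing and F2-25-25 has 2 values a gene. The C libraries of F1-25 and of F2-25-18 were not analysed here.

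Each value is the signal of a gene after the authors had scaled its read count by library with TMM factors, and is no whole number. The values sum to 3702933 to 4398050 a library, and the read depth behind them was not recovered from the table. A supplement of the study lists aligned reads per library, which are uneven and were not used here. Each comparison is a contrast of 1 limma model of log2(signal + 2) over all 22 libraries with values, and a gene is called when its Benjamini-Hochberg adjusted p over the 11314 genes tested is under 0.05. Rose and fell are used of called genes only. All 34 genes were among those tested. Their p-values rest on the spread between libraries that the submitters describe as biological replicates. This spread was drawn by limma towards a trend fitted over all genes by signal. A standard error is therefore not the replicate spread of that gene alone. As whole males were sampled, fewer muscle cells and less RNA per muscle cell cannot be told apart. The libraries hold male reproductive tissue, with all 13 accessory gland markers and all 13 entries of the testis list present. One entry of the testis list, don, was matched to the gene svp and is not read as a testis marker.

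The contractile genes gave some of the highest signals of these flies. Averaged over the libraries with measured values, 17 of the 34 stood among the 40 genes with the highest signal, Mhc held rank 1 with 155641, Mlc2 rank 2 with 68679.9 and bt rank 4 with 45295, and the lowest member was TpnC47D with 238. Long genes gather more reads, and per kilobase of exon the order changed. Mlc2, the myosin regulatory light chain, led with a signal of 30044 per kilobase, before Act88F with 23494, Mhc with 17183 and Act79B, the actin of tubular thoracic muscle, with 16731. The giant proteins fell back on this scale, with 1617 for bt (projectin) and 574 for sls (the titin-like kettin/Sallimus). Among the troponin C genes TpnC4 had 3039.8 per kilobase and TpnC41C 1104, whereas TpnC25D, TpnC73F and TpnC47D lay between 301 and 411. The members are spread over the genome, with 10 on chromosome arm 2R, 8 on 3R, 7 on 3L, 5 on X, 3 on 2L and 1 on chromosome 4.

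Together the 34 genes took 16.7% ± 0.684 (n = 4, SD) of all signal in F1-18 libraries, which lay between 15.8% and 17.5%, against 13.7% ± 0.676 (n = 3, SD) in F1-25 libraries, between 13.0% and 14.3%. The ranges did not overlap. In the F2 flies the share was 14.6% ± 1.12 (n = 4, SD) in F2-18-18, 15.9% ± 0.673 (n = 3, SD) in F2-25-18 and between 14.6% and 15.7% (n = 4) in F2-18-25, against 14.7% in both measured F2-25-25 libraries. These 4 ranges overlapped, except that every F2-25-18 library, from 15.2% upwards, lay above F2-25-25. The share is a description of the libraries and carries no test.

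**Figure D1:**
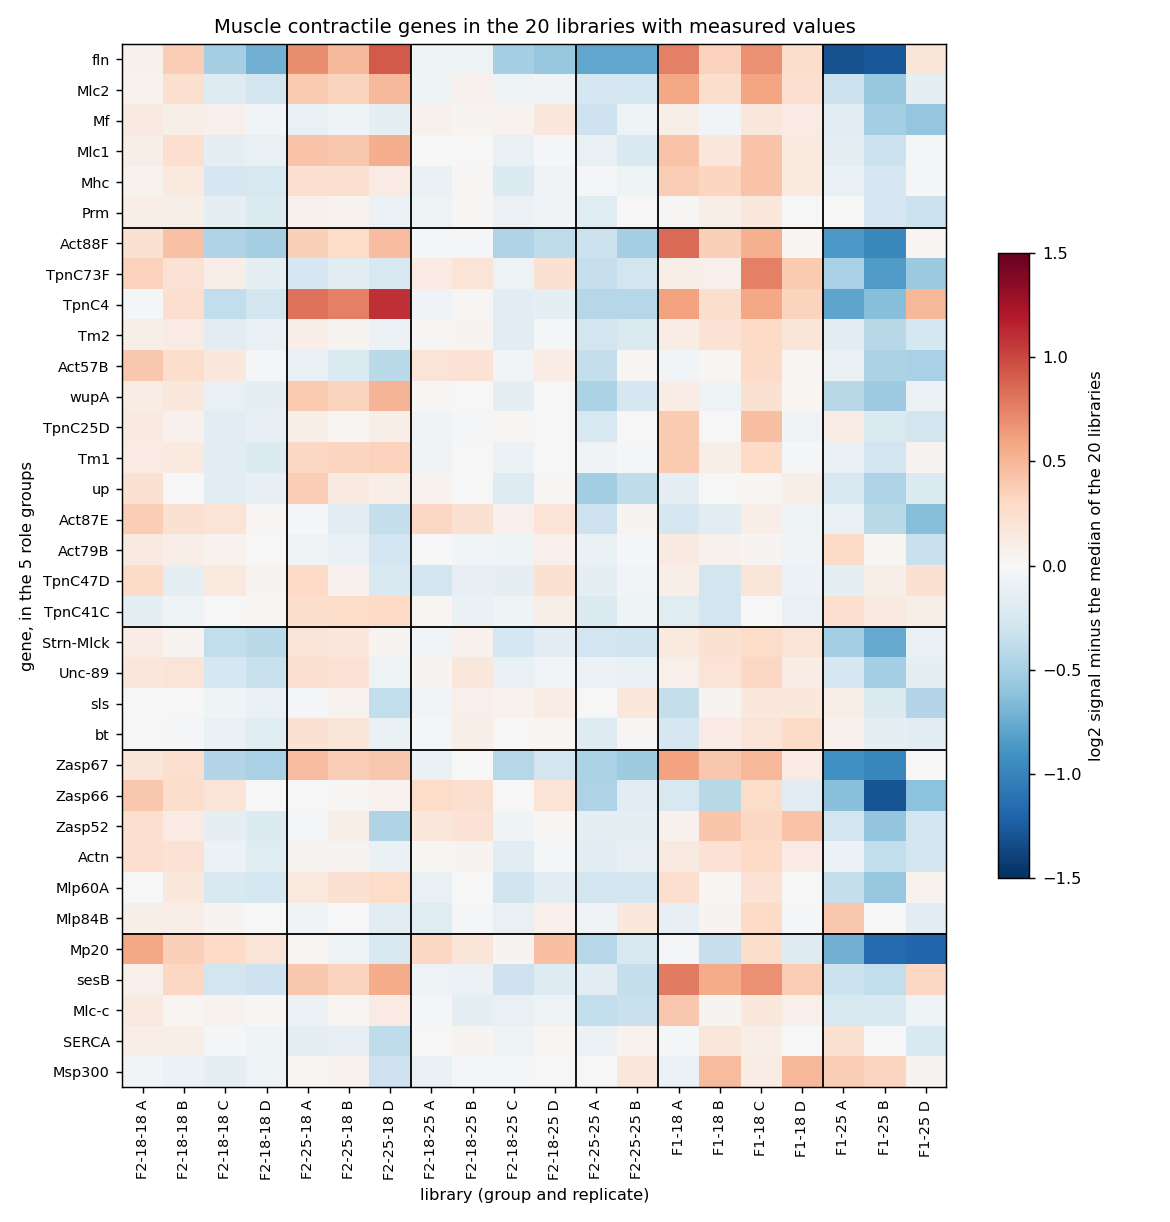
Each of the 34 genes (in the order of the 5 role groups, one below the other) in the 20 libraries with measured values, as log2 signal minus the gene's median over these libraries, from blue (lower) to red (higher). fln, TpnC4, Act88F, Zasp67 and sesB were above their medians in all F2-25-18 and F1-18 libraries and below them in F1-25 A and B, while F1-25 D was at or above them.

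Growth at 18 °C against growth at 25 °C was compared in the F1 flies. Of the 34 genes, 20 rose in F1-18 and 1 fell, and 13 did not pass the test. An unadjusted p under 0.05 was found in 26 of them and in 35.4% of all genes. Over all genes tested 2660 were called, 23.5% of 11314, with 11.0% rising and 12.6% falling. The median log2 fold change of the members was 0.44, against 0.01 over all genes. The rises reached every role group, with 4 of 6 thick filament genes, 6 of 13 thin filament genes, 2 of 4 giant and M-line genes, 5 of 6 Z-disc genes and 3 of 5 others. The fall was in TpnC41C, a thin filament gene. No overlap between the libraries of both groups was seen in 20 members that were higher and 1 that was lower in F1-18, while 11.1% and 15.1% of all genes were separated in these directions.

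In the thick filament, the largest change was in fln (FBgn0005633, chromosome 3L from 19989551 to 19991220, Release 6), which encodes flightin, a protein that binds myosin in indirect flight muscle. Its signal was 12262, 9192, 11697 and 8733 in the F1-18 libraries A to D, against 2935, 3004 and 8265 in the F1-25 libraries A, B and D. The groups did not overlap, but F1-25 D lay next to the lowest F1-18 library and far above A and B. The means were 10471 ± 1767 (n = 4, SD) in F1-18, against 4735 ± 3057 (n = 3, SD) in F1-25, a log2 fold change of 1.31 ± 0.29 (SE, adjusted p by limma 0.00277). Without F1-25 D it was 1.80. The myosin light chains rose as well. Mlc2, the regulatory chain (chromosome 3R from 30171438 to 30174551), had 96677, 77835, 97319 and 76288 in F1-18, against 51662, 43789.7 and 58957 in F1-25. Every F1-18 library was above every F1-25 library, with a log2 fold change of 0.76 ± 0.18 (SE, adjusted p by limma 0.00535). Mlc1, the essential chain, had 20029, 16610.5, 19980.5 and 16436 in F1-18 and 13517, 11955 and 14668 in F1-25, again without overlap, and a log2 fold change of 0.45. Mf, which encodes the thick filament protein myofilin, had 8935, 8162, 9457 and 9164 in F1-18, against 7437, 5883 and 5602 in F1-25, and a log2 fold change of 0.51 with no overlap.

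Mhc (chromosome 2L from 16766566 to 16788766), the only muscle myosin heavy chain gene of the fly and the gene with the highest signal before exon length is allowed for, did not pass the test. Its signal was 193816, 187616, 201305 and 165726 in F1-18 and 140010.0, 126261 and 148398 in F1-25, so that the groups did not overlap. The means were 187116 ± 15319 (n = 4, SD) in F1-18 and 138223 ± 11176 (n = 3, SD) in F1-25. The log2 fold change was 0.44 ± 0.21 (SE, adjusted p by limma 0.152). This standard error was drawn towards the trend over all genes and is not the spread of Mhc alone. Prm, which encodes paramyosin in the core of the filament, had 11446 to 12666 in F1-18 and 9104 to 11364 in F1-25, for a log2 fold change of 0.26 and an adjusted p of 0.0996 (limma).

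**Figure D2:**
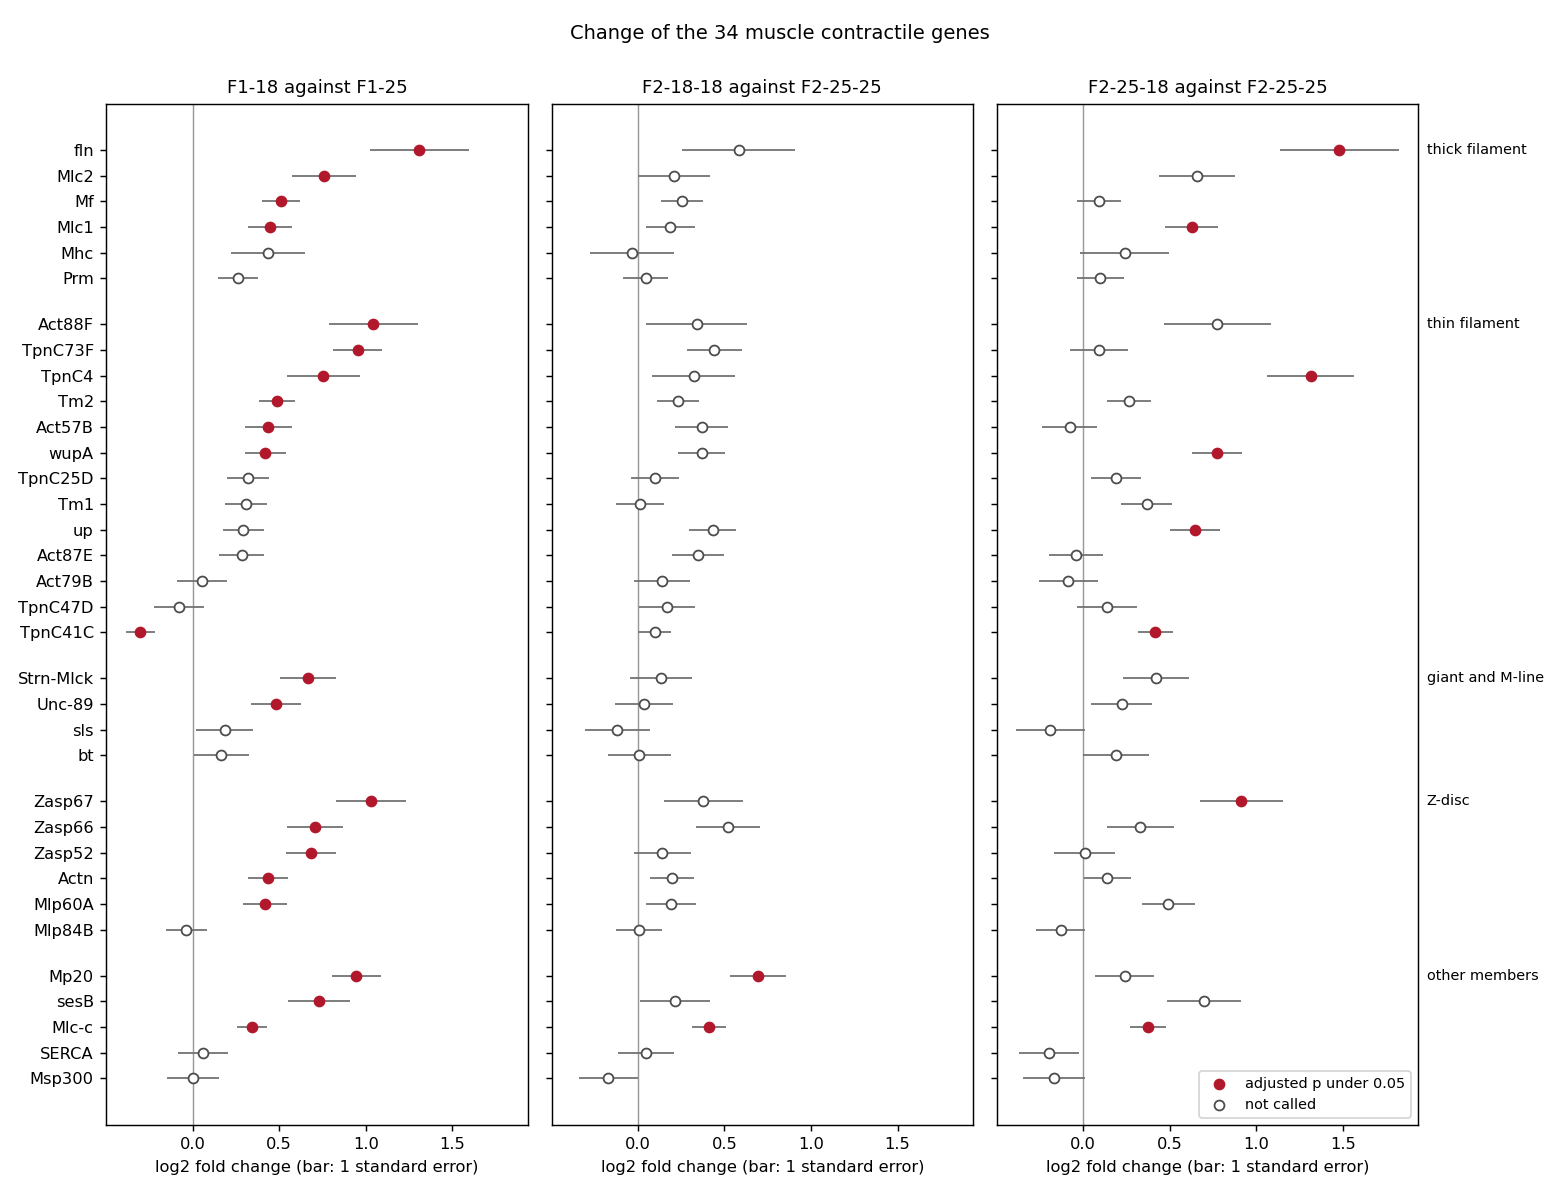
Log2 fold change of the 34 genes, ordered by role and by their change in F1, in F1-18 against F1-25 (left), F2-18-18 against F2-25-25 (middle) and F2-25-18 against F2-25-25 (right), with bars of 1 standard error from limma and filled points for an adjusted p under 0.05. In F1, 20 filled points lie right of 0 and that of TpnC41C lies left of 0, whereas 2 points in the middle panel and 8 in the right panel are filled.

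In the thin filament, Act88F (FBgn0000047, chromosome 3R from 15439969 to 15442177), the actin of indirect flight muscle, had 66074, 47098, 53136 and 37287 in F1-18, against 20147, 18793 and 37309 in F1-25. The groups overlapped, because F1-25 D was above F1-18 D. Its log2 fold change was 1.04 ± 0.26 (SE, adjusted p by limma 0.00617), and 1.36 without F1-25 D, while without F1-25 B the call was lost (adjusted p = 0.0517). Act57B, an actin of larval and adult body muscle, had 8254, 8710.1, 10424 and 8662 in F1-18, against 7847, 6099.9 and 6073 in F1-25. These values did not overlap, and the log2 fold change was 0.44 ± 0.13 (SE, adjusted p by limma 0.0227). The other muscle actins did not pass, with log2 fold changes of 0.28 for Act87E, expressed in body wall and visceral muscle, and 0.05 for Act79B. The coding sequences of the actin genes are nearly alike and only uniquely aligned reads were counted, so the split of signal between them is uncertain.

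The troponin C genes differed in direction. TpnC4 (chromosome 2R from 5503437 to 5507866), the flight muscle isoform tied to stretch activation, had 3449, 2729, 3399.8 and 2857 in F1-18, against 1314, 1453 and 3218 in F1-25. Its F1-25 D library lay inside the F1-18 range, and the log2 fold change was 0.75 ± 0.21 (SE, adjusted p by limma 0.0134). Without F1-25 D it was 1.16, whereas the call was lost without F1-25 A and without F1-25 B. TpnC73F, another troponin C gene, had 388, 383, 615 and 479.9 in F1-18, against 261, 203 and 247 in F1-25. Here all F1-25 libraries were low, the groups did not overlap and the log2 fold change was 0.95 ± 0.14 (SE, adjusted p by limma 0.000101). TpnC41C, a troponin C of adult muscle whose values were added after they had been seen, was the member that fell. It had 1806, 1695, 2036 and 1887 in F1-18, against 2438, 2249 and 2172 in F1-25, all F1-18 libraries below all F1-25 libraries, for a log2 fold change of -0.30 ± 0.08 (SE, adjusted p by limma 0.0123). This call was lost without F1-25 A (adjusted p by limma 0.0567). TpnC25D and TpnC47D did not pass, at 0.32 and -0.08.

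Troponin I and a tropomyosin rose too. wupA, which encodes troponin I, had 9022, 7929.5, 9812 and 8528 in F1-18, against 6282, 5742 and 7861 in F1-25, with no overlap and a log2 fold change of 0.42 ± 0.12 (SE, adjusted p by limma 0.0156). F1-25 D, at 7861, lay just below the lowest F1-18 library. Troponin T (up) had 9568, 10624, 10847 and 11286 in F1-18, against 8996, 7709 and 9219.5 in F1-25, which did not overlap either, but its log2 fold change of 0.29 did not pass (limma, adjusted p = 0.0807). Of the tropomyosins, which lie along the actin filament, Tm2 rose and Tm1 did not pass. Tm2 had 9864, 10543, 11211 and 10352 in F1-18, against 8070.5, 6805 and 7608 in F1-25, and a log2 fold change of 0.49 without overlap. For Tm1 it was 0.31, with 8959 to 12037 in F1-18 and 7524 to 9389 in F1-25.

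At the Z-disc, where thin filaments of neighbouring sarcomeres are anchored, the 3 Zasp genes, which encode PDZ domain proteins, all rose. Zasp67 (chromosome 3L from 9787933 to 9797687) had 1496, 1309, 1389.8 and 1070.1 in F1-18, against 527, 502 and 988 in F1-25. F1-25 D stood apart from A and B here too, still below all F1-18 libraries, and the log2 fold change was 1.03 ± 0.20 (SE, adjusted p by limma 0.00116). Zasp66 had 3471, 3059, 4966 and 3645 in F1-18, against 2655, 1669 and 2677 in F1-25, with B lowest, and a log2 fold change of 0.71. For Zasp52 the values were 9939.5, 12658, 11824 and 12824 in F1-18 and 7873, 6321 and 7854 in F1-25, and the log2 fold change was 0.68. Neither gene overlapped between the groups. Alpha-actinin (Actn), which crosslinks actin at the Z-disc, and the muscle LIM protein gene Mlp60A rose by log2 fold changes of 0.44 and 0.42. Its relative Mlp84B did not pass, at -0.04. Actn shares exon sequence on the same strand with usp, so the signal of the shared stretch is uncertain.

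Among the giant and M-line proteins, Strn-Mlck (stretchin, with a myosin light chain kinase domain) had 23881, 25207, 26050.3 and 24528 in F1-18, against 15108, 12770.1 and 20006 in F1-25. The groups did not overlap, and the log2 fold change was 0.67 ± 0.16 (SE, adjusted p by limma 0.00493). Unc-89, the obscurin of the M-line, had 15962, 17534, 18855 and 16346 in F1-18, against 12730.1, 10633 and 13668 in F1-25, and a log2 fold change of 0.48. The elastic connecting proteins did not pass, with 0.19 for sls and 0.17 for bt.

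Of the remaining members, Mp20 (FBgn0002789, chromosome 2R from 13246670 to 13248880), a calponin-like protein of muscles other than the fibrillar flight muscle, had 2840.1, 2286, 3492 and 2541 in F1-18, against 1760.2, 1299.9 and 1275 in F1-25. All F1-25 libraries were low, D among them, and the log2 fold change was 0.95 ± 0.14 (SE, adjusted p by limma 0.000117). The ADP/ATP translocase gene sesB, which overlaps its neighbour Ant2 on the same strand, had 40326, 34706, 37913 and 30688 in F1-18, against 18881, 18203 and 29179.5 in F1-25. F1-25 D was again near the F1-18 range, and the log2 fold change was 0.73 ± 0.18 (SE, adjusted p by limma 0.00617). The cytoplasmic light chain gene Mlc-c, with values added after they had been seen, had 643, 499, 542 and 511 in F1-18, against 411, 415 and 465 in F1-25, and rose by 0.34 on the log2 scale. The calcium pump gene SERCA and the nuclear envelope protein gene Msp300 were at 0.06 and 0.00 and did not pass.

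**Figure D3:**
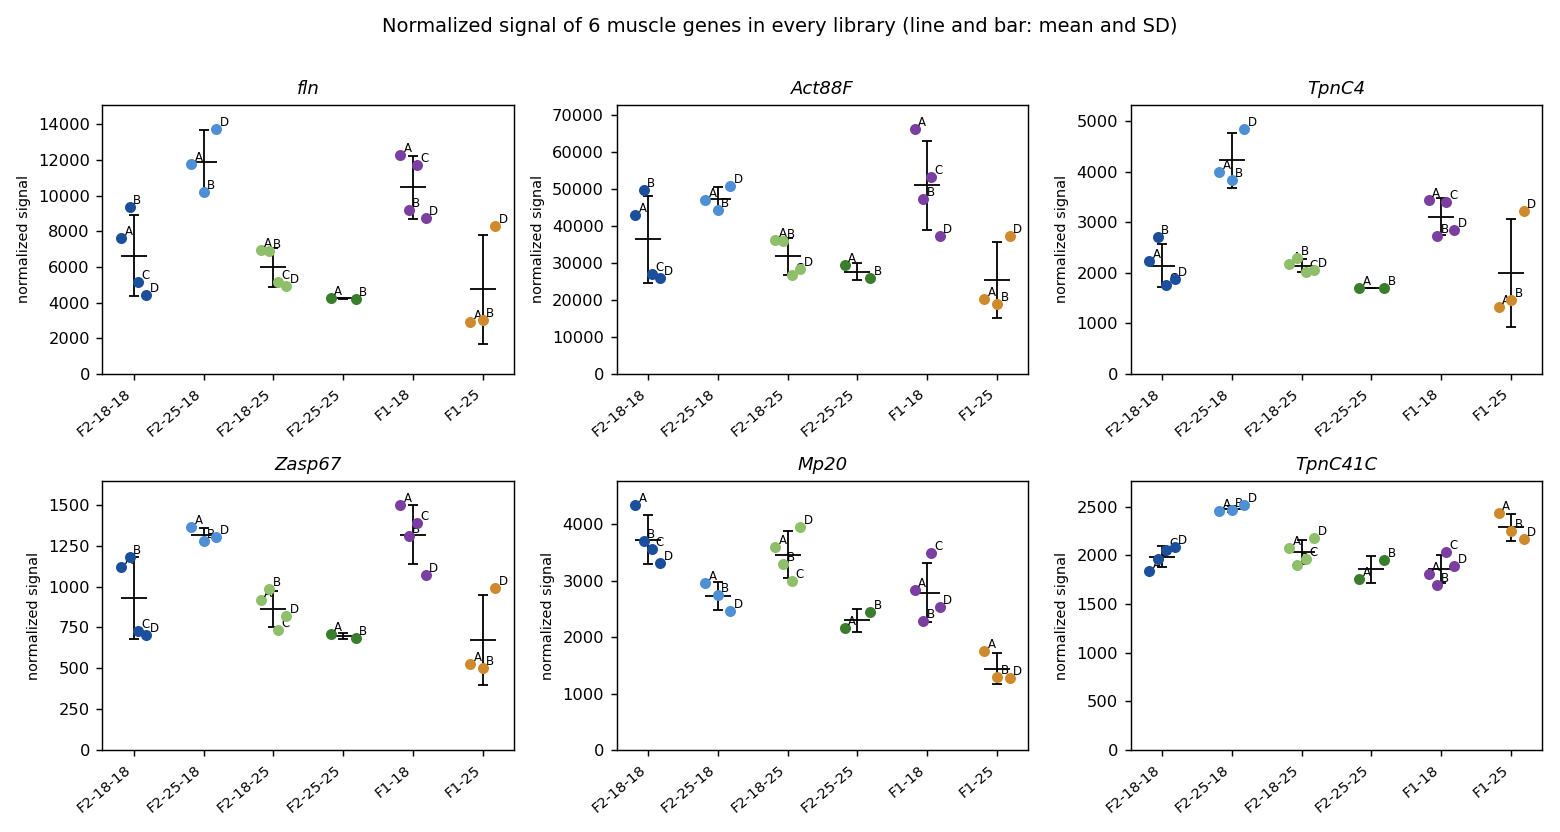
Normalized signal of fln, Act88F, TpnC4, Zasp67, Mp20 and TpnC41C in every library with a measured value, with a line at the group mean and a bar of 1 SD and the replicate letter beside each point (the vertical axis starts at 0). F1-25 D is set apart from A and B in fln, Act88F, TpnC4 and Zasp67 and lies with them in Mp20.

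How many of these calls stood depended on the control libraries. Without F1-25 B the calls of Act88F, sesB, Strn-Mlck, Mlc1, wupA, Unc-89, TpnC4, Mlp60A, Actn and Act57B were lost. Without F1-25 A those of wupA, TpnC4, Mlp60A and TpnC41C were lost, and without F1-25 D that of Act57B. With only the 7 F1 libraries in the fit, 5 members rose (fln, Zasp67, TpnC73F, Mp20 and Zasp52), none fell, and 1163 genes were called, and without F1-25 B 10 rose and TpnC41C fell, while leaving out any other F1 library gave 18 to 23 members, not all of them the same ones. With values scaled to equal library totals, the median of all genes shifted by -0.153 and 574 genes rose against 2365 that fell, 14 members rose and 1 fell, and the members' median stayed 0.42 above that of all genes, as with the deposited scaling.

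Other muscle genes were read beside the contractile ones. Of 30 tested genes of muscle development, attachment and excitation, 8 rose in F1-18 and 1 fell, with a median log2 fold change of 0.13. The largest rise was in salm, the zinc finger gene that specifies fibrillar flight muscle, with a signal of 247 ± 59.1 (n = 4, SD) in F1-18, against 140.2 ± 8.86 (n = 3, SD) in F1-25 and a log2 fold change of 0.78 (limma, adjusted p = 0.000912). Scgdelta, a sarcoglycan of the muscle membrane, rose by 0.77 and the calponin family gene Chd64 by 0.55 on the log2 scale. The small heat shock protein gene l(2)efl fell, with -0.54. Both cytoplasmic actins, Act5C and Act42A, rose, and their summed signal was 5613 to 8065 in F1-18 and 4611 to 5245 in F1-25.

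Markers of other tissues moved in the same comparison. Of 13 accessory gland genes 11 fell and none rose, and their summed signal was 5993 to 9011 in F1-18 libraries and 13617 to 15599 in F1-25 libraries. Of the 13 entries of the testis list 6 fell, and the 1 that rose was svp, matched to the symbol don. Their sums, with svp included, were 12613 to 13880.0 in F1-18 and 15413 to 16367 in F1-25. Of 12 tested midgut genes 6 fell. None of the 7 fat body and larval storage genes and none of the 5 neuronal genes passed (limma). No listed gene that was measured was at 0 in all libraries. The part of these tissues in the muscle result was not tested.

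The F2 groups address whether the temperature of the F1 sources is still seen in offspring grown at 25 °C after the egg stage, where exposure as an egg and inheritance through the germline cannot be told apart. Between F2-18-18 and F2-25-25, where both sources differ, 2 of the 34 genes rose, Mp20 and Mlc-c, and none fell, while 9 had an unadjusted p under 0.05. Over all genes 329 were called, 2.91% of 11314 (2.23% rising and 0.681% falling), and 17.4% had an unadjusted p under 0.05. The median log2 fold change of the members was 0.19, against -0.01 over all genes. The libraries did not overlap in 12 members that were higher in F2-18-18 and in Msp300, which was lower, where 13.5% and 12.8% of all genes were separated. Mp20 had 4335, 3703, 3567 and 3315 in F2-18-18, against 2159.5 and 2444 in F2-25-25. All F2-18-18 libraries were above both control libraries, and the log2 fold change was 0.69 ± 0.16 (SE, adjusted p by limma 0.0213). The light chain gene Mlc-c had 534, 496, 504 and 492 in F2-18-18, against 377 and 385 in F2-25-25, with a log2 fold change of 0.41 ± 0.10 (SE, adjusted p by limma 0.0245). Both calls were lost without F2-18-18 A, the library of its group with the fewest aligned reads in the study's supplement, and without either F2-25-25 library. That of Mlc-c was also lost with equal library totals, under which 179 genes rose and 248 fell. The part of read depth in these calls was not tested.

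The flight muscle genes that led in F1 did not pass here. fln had 7611, 9349.8, 5151 and 4397 in F2-18-18, against 4246 and 4215 in F2-25-25, with a log2 fold change of 0.58 ± 0.33 (SE, adjusted p by limma 0.382). The libraries did not overlap, but A and B of F2-18-18 were far above C and D. Act88F showed the same pattern, with 42889.9, 49642, 26849 and 26011 in F2-18-18 and 29266 and 26003 in F2-25-25 and a log2 fold change of 0.34 (limma, adjusted p = 0.602). In F2-18-18, A and B were both above C and D in 30 of the 34 genes and both below them in TpnC41C. Troponin T (up) did not pass either. It had 12440.5, 10655, 9476 and 9713 in F2-18-18, against 7406 and 8182 in F2-25-25. Its log2 fold change was 0.43 ± 0.14 (SE, adjusted p by limma 0.0918). The values of wupA were 9022, 9339, 7768 and 7595 in F2-18-18 and 6033 and 7011 in F2-25-25, without overlap, at 0.37 (adjusted p = 0.162, limma). Act57B had 11301, 10200.2, 9491 and 8396 in F2-18-18, against 6651 and 8624 in F2-25-25, which overlapped. Mhc had 155207, 166641, 126204 and 126848 in F2-18-18, against 148700.0 and 143000.0 in F2-25-25, and overlapped as well, with a log2 fold change of -0.03.

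Whether the F1 change differed from the F2 change was tested as the difference of both contrasts, F1-18 against F1-25 minus F2-18-18 against F2-25-25. No member passed (limma) and 5 of 34 had an unadjusted p under 0.05, where 4.78% of all genes passed (1.62% upwards and 3.16% downwards) and 22.1% had an unadjusted p under 0.05. The lowest adjusted p was that of TpnC41C, 0.0701, with a difference of -0.40 on the log2 scale. For fln the difference was 0.73 with a standard error of 0.43, so the F2 response of this gene was not shown to differ from that in F1.

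Of the 5 pairs of F2 groups tested, F2-25-18 against F2-25-25 had the most members called (F2-25-18 against F2-18-25 was not tested). These groups differ in the source given by the second number. Of the 34 genes 8 rose and none fell, where 799 genes were called in all, 7.06% of 11314 (4.35% rising and 2.71% falling). The 8 were fln and Mlc1 of the thick filament, TpnC4, wupA, up and TpnC41C of the thin filament, Zasp67 of the Z-disc and Mlc-c. An unadjusted p under 0.05 was found in 15 of 34 and in 24.3% of all genes. The members' median log2 fold change was 0.24, against 0.00 over all genes. In 22 members the F2-25-18 libraries were all higher and in SERCA all lower than both controls, which held for 19.3% and 18.9% of all genes. fln had 11768, 10188 and 13723 in the F2-25-18 libraries A, B and D, against 4246 and 4215 in F2-25-25. The lowest F2-25-18 library was well above both controls, with a log2 fold change of 1.48 ± 0.34 (SE, adjusted p by limma 0.0156). TpnC4 had 3994, 3839 and 4845 in F2-25-18, against 1689.9 and 1690.0 in F2-25-25, and a log2 fold change of 1.31 ± 0.25 (SE, adjusted p by limma 0.00636). These were the highest TpnC4 values of the series. Zasp67 had 1364, 1279 and 1305 in F2-25-18, against 710.2 and 684 in F2-25-25. The replicates were close to each other in both groups, and the log2 fold change was 0.91.

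Troponin I, the inhibitory subunit, and troponin T, the subunit that binds tropomyosin, rose in the same comparison. wupA had 10960.3, 10508 and 11886 in F2-25-18, against 6033 and 7011 in F2-25-25, and a log2 fold change of 0.77 ± 0.14 (SE, adjusted p by limma 0.00576). The up gene had 13662, 11634 and 11383 in F2-25-18, against 7406 and 8182 in F2-25-25, and a log2 fold change of 0.65 ± 0.14 (SE, adjusted p by limma 0.0124). Neither overlapped. Mlc1 had 20019, 19766 and 21699 in F2-25-18, against 13778 and 12751 in F2-25-25, and a log2 fold change of 0.63. TpnC41C, which fell in F1-18, rose here, with 2455, 2467 and 2512 in F2-25-18, against 1759 and 1954 in F2-25-25, and a log2 fold change of 0.42 ± 0.10 (SE, adjusted p by limma 0.0175). Mlc-c rose by 0.38 on the log2 scale. Act88F had 46859.5, 44344 and 50663 in F2-25-18, against 29266 and 26003 in F2-25-25, which did not overlap, but its log2 fold change of 0.78 did not pass (limma, adjusted p = 0.126), and sesB (0.70) and Mlp60A (0.49) missed the threshold narrowly at adjusted p-values of 0.0524 and 0.0527. Act57B, Act79B and Act87E were at -0.08, -0.09 and -0.04 and Mhc at 0.24, none of which passed.

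The 8 calls rested on few libraries. Without F2-25-25 A no member and 3 genes were called, without F2-25-25 B 1 member, and without F2-25-18 D 3 members, while equal library totals left 6 members and turned the split of all genes to 323 rising and 1574 falling, with a shift of -0.174 of the median of all genes. All 7 fat body and larval storage markers rose in F2-25-18 and in F2-18-18 against F2-25-25. Their summed signals were 80958 to 99255 in F2-25-18 and 105005 to 125765 in F2-18-18, against 15290.0 to 15421 in F2-25-25. In F2-18-25 the sums ran from 10875 to 110585, and none of the 7 passed. Of the 8 muscle genes only Mlc-c was also called in F2-18-18 against F2-25-25. Of the 13 entries of the testis list, 4 fell in F2-25-18 and 3 in F2-18-18. The part of these markers in the muscle result was not tested.

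The other F2 comparisons gave few calls or none. F2-18-25 against F2-25-25, which differ in the first number, had no member called and 8 of 34 with an unadjusted p under 0.05, where limma called 7 genes in all, 0.0619% of those tested (0.0354% rising and 0.0265% falling), and 9.32% had an unadjusted p under 0.05. All F2-18-25 libraries were higher than both controls in 16 members and lower in Msp300, as they were in 9.01% and 9.38% of all genes. Mp20 led with 3604, 3292, 2992 and 3956 in F2-18-25, against 2159.5 and 2444 in F2-25-25, and a log2 fold change of 0.58 ± 0.16 (SE, adjusted p by limma 0.282). F2-18-18 against F2-18-25, which differ in the second number, had none called and none with an unadjusted p under 0.05 (limma), where 1.77% (1.68% rising and 0.0884% falling) and 14.8% of all genes were. The groups were apart in 1 member, which was higher in F2-18-18, where 6.28% of all genes were apart in this direction and 5.03% in the other, and the members' log2 fold changes ran from -0.10 in bt to 0.16 in TpnC47D. The 3 comparisons against F2-25-25 share its 2 libraries and are not independent of each other.

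Between F2-18-18 and F2-25-18, which differ in the first number, TpnC4 fell and no member rose, while 14 of 34 had an unadjusted p under 0.05. Over all genes 0.681% were called (0.309% rising and 0.371% falling) and 14.1% had an unadjusted p under 0.05. The TpnC4 signal was 2242, 2706, 1753 and 1876 in F2-18-18, against 3994, 3839 and 4845 in F2-25-18, without overlap, and its log2 fold change was -0.99 ± 0.21 (SE, adjusted p by limma 0.0282). The libraries were apart in 8 members that were higher and 9 that were lower in F2-18-18, against 8.33% and 8.16% of all genes. The TpnC4 call was lost in 6 of the 7 fits that left out 1 library. fln pointed the same way at -0.90, and Mp20 and Act57B the other way at 0.45 and 0.45, with no overlap in any of the 3, and none passed (adjusted p from 0.121 to 0.146, limma).

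Over all F2 libraries, with both numbers of the name as additive terms, 18 against 25 as the first number raised 3 members, Mp20, TpnC73F and Act87E, and lowered none, where 1.62% of all genes were called (1.03% rising and 0.592% falling) and 9 of 34 members, against 17.3% of all genes, had an unadjusted p under 0.05. The log2 fold changes were 0.51 ± 0.08 (SE, adjusted p by limma 0.00651) for Mp20, 0.39 ± 0.08 (SE, adjusted p by limma 0.0186) for TpnC73F and 0.37 ± 0.08 (SE, adjusted p by limma 0.0321) for Act87E, and those of Mp20 and TpnC73F were called under all alternatives tried. Act57B was at 0.38 and just missed the threshold at 0.0527.  As the second number, 18 against 25 raised Mlc-c alone, by 0.23 ± 0.06 (SE, adjusted p by limma 0.0132), where 16.3% of all genes were called (9.47% rising and 6.78% falling) and 10 of 34 members, against 30.3% of all genes, had an unadjusted p under 0.05, while fln, TpnC4 and Zasp67 were at 0.62, 0.48 and 0.39 and did not pass. The Mlc-c call was lost without F2-25-25 A and with equal library totals, and 6 members were called without F2-18-18 C and 8 without F2-18-18 D. Whether the second number acted differently beside each first number was tested by their interaction. No member passed and 10 of 34 had an unadjusted p under 0.05 (limma), where 1 gene, 0.00884% of those tested, passed and 8.72% had an unadjusted p under 0.05. The lowest adjusted p was 0.240, for TpnC4, whose response to 18 as the second number differed by -1.33 on the log2 scale (beside 18 minus beside 25 as the first number).

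Between generations, both at 25 °C with control history, Mp20 rose in F2-25-25 against F1-25 and no member fell, where 6.59% of all genes were called (2.78% rising and 3.82% falling). An unadjusted p under 0.05 was found in 3 of 34 and in 20.0% of all genes. The groups were apart in 5 members that were higher and 2 that were lower in F2-25-25, against 14.2% and 14.8% of all genes. Mp20 had 2159.5 and 2444 in F2-25-25, against 1760.2, 1299.9 and 1275 in F1-25, and a log2 fold change of 0.68 ± 0.17 (SE, adjusted p by limma 0.0179). The call was lost without F1-25 B or D or either F2-25-25 library. The 2 groups also differ in the egg washing and in the bottles with faeces, which only F2 flies met, so generation and handling cannot be told apart.

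Shares between isoforms do not depend on how the libraries were scaled. Per kilobase of exon, Act88F took 55.4% ± 5.09 (n = 4, SD) of the signal of the 4 muscle actin genes in F1-18, against 40.5% ± 13.4 (n = 3, SD) in F1-25, where A and B had 31.5% and 34.2% and D had 55.9%. It took 45.4% ± 6.91 (n = 4, SD) in F2-18-18, 57.7% ± 3.56 (n = 3, SD) in F2-25-18 and 44.0% ± 3.56 (n = 4, SD) in F2-18-25, against 45.9% and 40.3% in F2-25-25. TpnC4 took 62.5% ± 1.87 (n = 4, SD) of the 5 troponin C genes in F1-18, against 50.3% ± 12.7 (n = 3, SD) in F1-25 (40.8% and 45.5% in A and B, 64.7% in D). In the F2 flies it took 53.6% ± 4.73 (n = 4, SD) in F2-18-18, 67.8% ± 2.93 (n = 3, SD) in F2-25-18 and 54.0% ± 2.27 (n = 4, SD) in F2-18-25, against 52.2% and 49.7% in F2-25-25. Both shares in F2-25-18 lay above all libraries of the other F2 groups, and F1-25 D lay with F1-18 in both. The share of TpnC41C, part of the same total, was 16.9% ± 1.26 (n = 4, SD) in F1-18, against 28.5% ± 7.74 (n = 3, SD) in F1-25, and 18.1% ± 1.27 (n = 3, SD) in F2-25-18, against 24.6% and 25.9% in F2-25-25.

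**Figure D4:**
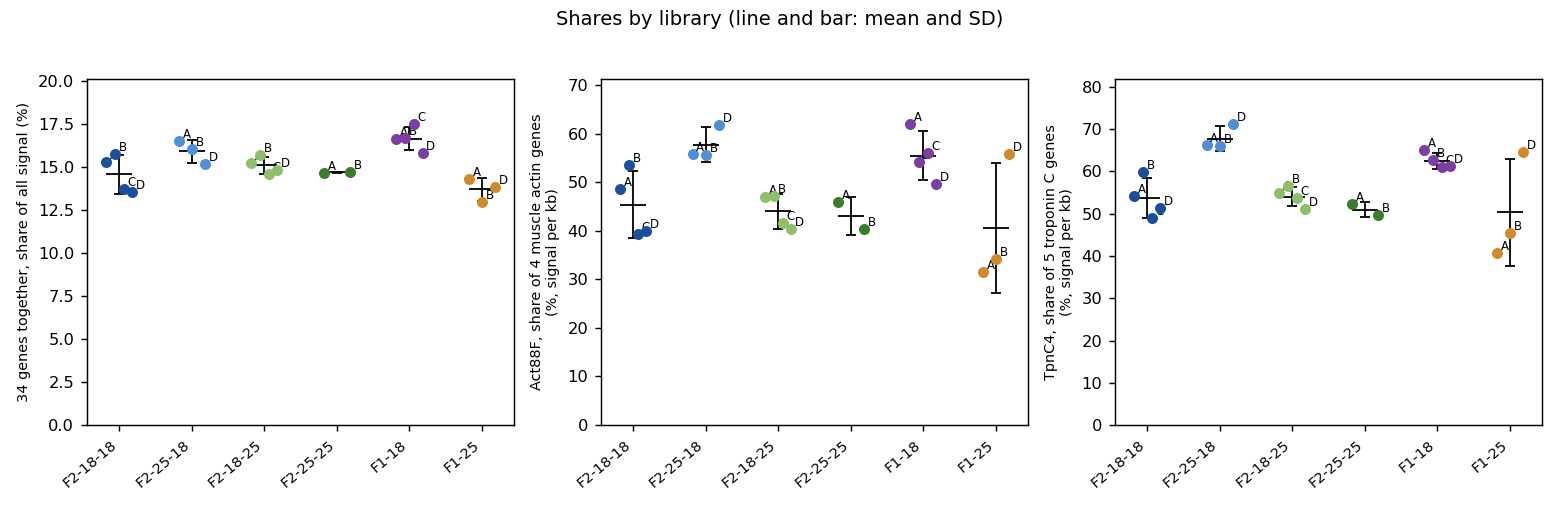
Share of the 34 genes in all signal (left), of Act88F in the 4 muscle actin genes (middle) and of TpnC4 in the 5 troponin C genes (right), in percent (isoform shares per kilobase of exon), for each library with its replicate letter, with a line at the group mean and a bar of 1 SD. The 3 F2-25-18 libraries are the highest F2 libraries in both isoform shares, and F1-25 D lies within the F1-18 range in both.

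Across all groups, the mean of fln was 11893 in F2-25-18, 10471 in F1-18, 6627 in F2-18-18, 5967 in F2-18-25, 4735 in F1-25 and 4230.2 in F2-25-25, from high to low. The libraries of every pair of neighbours in this order overlapped. Mp20 had another order, with 3729.9 in F2-18-18, 3461 in F2-18-25, 2789 in F1-18, 2724 in F2-25-18, 2302 in F2-25-25 and 1445 in F1-25. Here the neighbours overlapped down to F2-25-18, whereas F2-25-18 lay just above F2-25-25, and F2-25-25 above F1-25.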

How the data were processed

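RNA sequencing of whole males was summarised by the authors, who removed ribosomal reads with SortMeRNA, trimmed with Trimmomatic 0.32, aligned with STAR 2.4.0f1 to release 6 of the Drosophila melanogaster genome, and counted uniquely aligned reads by gene and strand with htseq-count 0.6.1. The deposited signal is this count after TMM normalization with edgeR by the authors. Coordinates and exon lengths came from an Ensembl annotation of the same release, in which Unc-89 is listed as Obsc. Values were analysed as log2(signal + 2) with limma 3.58.1 in R 4.3.3 (intensity trend, two-sided moderated test, 1 mean per group), for genes with a signal of at least 10 in at least 3 libraries. Calculated values of F2-25-25 were set to missing (7150 genes had them). The additive model used the F2 libraries alone. The test was checked on simulated counts with changes planted in F1-18. These counts were drawn independently for each gene and library, so the check did not cover genes that move together by library. The members and lists were chosen with earlier results of these data known. Values per library were given for the 16 called members with the largest F1 or F2-18-18 change and for Mhc, up, wupA, Act88F and Act57B, and other lists were named by at most 4 genes. The alternatives tried were other pseudocounts, no filter, other scalings, only the libraries compared, a replicate block, other treatments of the calculated values, a robust fit and leaving out each library.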

Additional observations from a re-analysis of the deposited data

Results flagged for a closer look

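Of 105 values-and-groups examined for a library far from the other libraries of its group (groups of 4 with the 34 genes and the shares), 3 stood out, all within F2-18-25, where chance gives about 1 in 20. Mlc2 had 67630.6 in replicate B, with the nearest library at 62221.4. Mf had 9465.48 in replicate D, with the nearest at 8755.52. The signal of wupA was 7534.31 in replicate C, below the nearest library at 8305.63. Replicate C was the lowest library of F2-18-25 in 24 of the 34 genes. In the study's supplement, the library named F2C-M18-G25 has the fewest aligned reads of all listed. The part of read depth in these values was not tested.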

How the results depend on the processing

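Genes and members called changed most with the libraries in the fit and with the treatment of the calculated F2-25-25 values, and the cause was not tested. No called value changed sign. With only the libraries compared, 1163 genes and 5 members were called in F1-18 against F1-25, 823 and 4 in F2-18-18 against F2-25-25, 1486 and 14 in F2-25-18 against F2-25-25, 59 and 1 in F2-18-25 against F2-25-25, 528 genes in F2-18-18 against F2-18-25, 194 and 3 in F2-18-18 against F2-25-18, and 334 and 0 in F2-25-25 against F1-25. With C and D of F2-25-25 as in the file, the counts were 1274 and 6, 2196 and 14, and 103 and 1 for F2-18-18, F2-25-18 and F2-18-25 against F2-25-25, 145 and 2 for F2-18-18 against F2-25-18, 1648 and 3 for F2-25-25 against F1-25, 547 genes for the first number and 2851 and 10 for the second, and with both left out in all genes 2 members for the second. With equal library totals, 1897 genes were called in F2-25-18 and 4 in F2-18-25 against F2-25-25 (1702 and 4 with the members left out of the totals), and under both scalings 1 member in F2-18-18 against F2-25-25, 2 in F2-25-25 against F1-25, 5 for the first number and 0 for the second, which had 2795 genes without the members in the totals. Equal totals also turned the split of rising and falling genes to 1 and 3 in F2-18-25 against F2-25-25, 58 and 25 in F2-18-18 against F2-25-18, 433 and 379 in F2-25-25 against F1-25, and 681 and 2007 for the second number, while leaving the members out gave 149 and 33 in F2-18-18 against F2-18-25. The robust fit called 5 members for the first number. In no comparison of 3 or more pairs did every same-numbered pair of libraries deviate together by a correlation over 0.1 (from -0.286 to 0.103 in F1, and from 0.0341 to 0.123, all positive, in F2-18-18 against F2-18-25), so the numbers were not taken as pairing, and with the replicate block 538 genes were called in F2-18-18 against F2-25-25 and 0 members in F2-18-18 against F2-25-18, where TpnC4 was lost. Leaving out single libraries gave 1511 to 2846 genes and 11 to 23 members in F1-18 against F1-25, 2 to 369 and 0 to 2 in F2-18-18 against F2-25-25, 3 to 905 and 0 to 10 in F2-25-18 against F2-25-25, 0 to 7 genes in F2-18-25 against F2-25-25, 2 to 399 genes in F2-18-18 against F2-18-25, 4 to 50 and 0 to 1 in F2-18-18 against F2-25-18, 144 to 1069 and 0 to 1 in F2-25-25 against F1-25, 77 to 272 and 2 to 5 for the first number, and 1106 to 2121 and 0 to 8 for the second. In F1, 10 of the 21 member calls held without any single library and 5 under all alternatives. The number of libraries, with 2 measured values in F2-25-25, limits the precision, and the read depth of each library did not enter the test.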
